A study of Mus musculus with 18 samples.

Results

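Dopa decarboxylase and the enzymes and regulators of polyamine metabolism were followed in NMuMG cells, an epithelial line from normal mouse mammary gland, after treatment with halofuginone (HF). The members were 9 genes chosen by symbol (Ddc, Hdc, Odc1, Oaz1, Oaz2, Amd1, Srm, Sms and Sat1). Of these, 8 were measured, by 9 of the 21973 probes in the table, 2 of them for Ddc and 1 for each other gene, against 16675 genes with a symbol in all. Sms had no probe under its symbol or an older name and was not measured here. The tested cells received 10 nM HF, and their controls 10 nM MAZ1310, an analog of HF described by the submitters as inactive, both carried in acidified DMSO and both for 8 hr, starting 45 minutes after plating in complete medium with serum and insulin. Each treatment had 3 separate cultures (replicates 1 to 3), and the RNA of each culture was run on 3 arrays of the Phalanx mouse whole-genome design, 18 arrays in all, labelled in Cy5. No culture without compound and no genetic change was part of the comparison, and every culture came from the same line. The members had been picked with results of this comparison known, so their differences between HF and MAZ1310 are given as a description, without a p-value.

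Ddc removes the carboxyl group from L-dopa and from 5-hydroxytryptophan, which yields dopamine and serotonin, and it needs pyridoxal phosphate, the active form of vitamin B6. Hdc is its relative and makes histamine from histidine. Polyamines (putrescine, spermidine and spermine) are small positively charged molecules that bind nucleic acids and are required for cell growth. Odc1 makes putrescine from ornithine, Amd1 supplies the aminopropyl donor from S-adenosylmethionine, and Srm and Sms add aminopropyl groups in turn to make spermidine and then spermine. The antizymes Oaz1 and Oaz2 bind Odc1 protein and bring it to the proteasome, and Sat1 acetylates spermidine and spermine, which marks them for oxidation or export. Much of the control of Odc1, the antizymes, Amd1 and Sat1 acts on translation and on protein decay, which an array of mRNA does not measure.

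All values below are log2 intensities, with the technical arrays of a culture averaged, and a change is the HF mean minus the MAZ1310 mean on the log2 scale. The median over all genes of the SD between cultures was 0.22 with HF and 0.20 with MAZ1310, and that between technical arrays of a culture was 0.21. Median correlations of an array with the others ran from 0.945 to 0.970. A gene was called where its Benjamini-Hochberg adjusted p in limma was under 0.05 over all 16675 genes. By this rule 504 genes were called (3.02%), 242 of them higher (1.45%) and 262 lower (1.57%) with HF. The table holds no detection call. A gene is therefore described as dim where its mean lay at or below 8.73, the 95th percentile of the MAZ1310 means of 689 olfactory receptor genes, a family with little expression outside the nose. Intensities of different probes also depend on the probe, so no gene's level is set against that of another member.

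Ddc was lower in HF cultures than in MAZ1310 cultures, and among the measured members it was the gene that was called lower. The median of its probes was 6.55, 6.55 and 6.95 in HF replicates 1 to 3, against 7.67, 8.52 and 8.71 in MAZ1310 replicates 1 to 3. Every HF culture lay below every MAZ1310 culture, and MAZ1310 replicate 1 was the lowest of its group. The means were 6.68 ± 0.23 with HF and 8.30 ± 0.56 with MAZ1310 (SD, n = 3 each), a change of -1.62 (SE 0.28, 95% confidence interval -2.28 to -0.95), or 3.07-fold lower. Only 26 of the 16675 genes, Ddc among them, had a change at least this far below 0. Non-overlapping cultures with HF below were seen for 9.85% of all genes. Both means lay in the dim range, at the 59.7th percentile of the olfactory receptor genes with HF and at the 90.9th with MAZ1310. In total RNA of a culture, fewer cells with a transcript and less of it per cell cannot be told apart. The call ended when HF replicate 1 (change -1.55), HF replicate 2 (-1.55), HF replicate 3 (-1.75), MAZ1310 replicate 2 (-1.51) or MAZ1310 replicate 3 (-1.41) was left out, and it held without MAZ1310 replicate 1 (-1.93).

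Both Ddc probes showed this difference. Probe mMC007886 read 6.71, 6.84 and 7.30 in HF cultures and 8.06, 8.75 and 8.96 in MAZ1310 cultures, a change of -1.64 (SE 0.27, interval -2.28 to -1.01). Probe mMR028010 read 6.39, 6.26 and 6.60 in HF cultures and 7.27, 8.29 and 8.47 in MAZ1310 cultures, a change of -1.59 (SE 0.31, interval -2.32 to -0.87). The cultures did not overlap at either probe. In a fit over all 21973 probes, which called 491 (2.23%), the first probe was called lower (1.09% of all probes) and the second was not. Without technical array 1 of MAZ1310 replicate 1 the calls were exchanged, with changes of -1.52 at the first probe and -1.65 at the second. Non-overlapping cultures were seen for 20.2% of all probes, with HF below for 9.07%. Array by array the groups came closer. The lowest, median and highest of the 9 HF arrays at mMC007886 were 6.46, 6.91 and 7.74, against 7.28, 8.78 and 9.26 for the 9 MAZ1310 arrays, so single arrays overlapped. The arrays of MAZ1310 replicate 1 spread over 1.50 at this probe, the widest range of any culture. At mMR028010 the arrays read 6.04, 6.39 and 7.04 with HF and 6.93, 8.27 and 8.62 with MAZ1310, and again the highest HF array lay above the lowest MAZ1310 array.

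**Figure D1:**
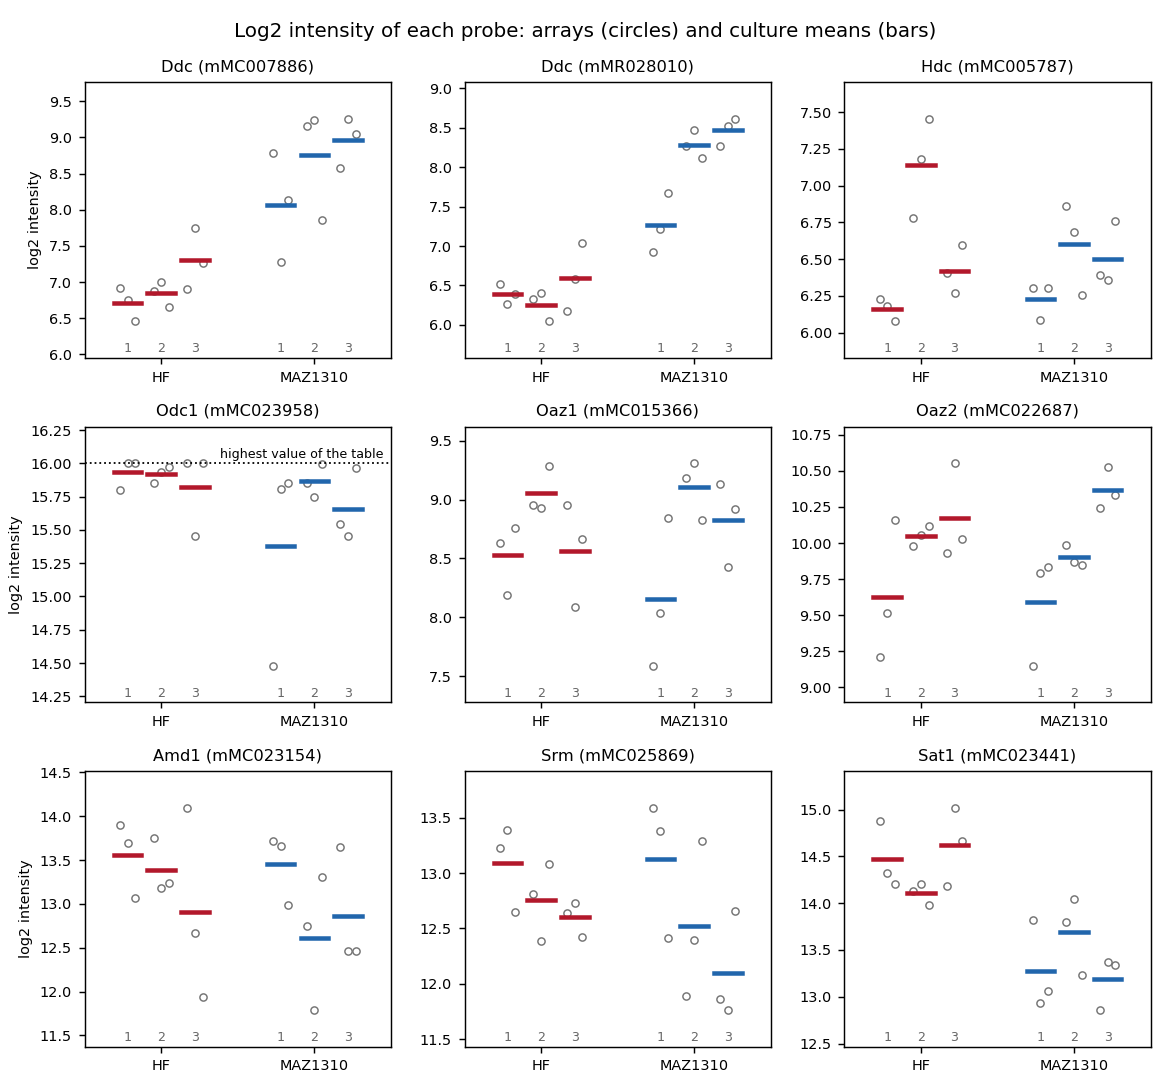
Log2 intensity of the 9 probes of the 8 measured genes, with HF on the left and MAZ1310 on the right of each panel and culture replicates 1 to 3 side by side. Open circles are single technical arrays, bars are culture means, each panel has its own scale, and the dotted line at 16 in the Odc1 panel is the highest value of the table. The HF bars lie below all MAZ1310 bars at both Ddc probes, above them at Sat1, and overlap them at the other 6 probes.

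RefSeq annotates 2 transcript starts for Ddc on the minus strand of chromosome 11, 7736 bases apart (GRCm38.p6). Which transcript each probe reads is not known, since the probe sequences were not used here. The 250 bases before each start are shown because both starts could give the Ddc signal, and those before Sat1, on the minus strand of chromosome X, because it was the member called in the other direction. The second Ddc window lies inside the annotated Ddc gene. The windows are printed 5′ to 3′ along the gene, and capitals mark a TATAAA match on the other strand in the first, a match of CCAAT on the other strand in the second, and the matches of GGGCGG, on either strand, in the third. Their first bases lie 68 bases before the start in the first, 55 in the second, and 72 and 6 in the third.
Ddc, chr11:11898145-11898394: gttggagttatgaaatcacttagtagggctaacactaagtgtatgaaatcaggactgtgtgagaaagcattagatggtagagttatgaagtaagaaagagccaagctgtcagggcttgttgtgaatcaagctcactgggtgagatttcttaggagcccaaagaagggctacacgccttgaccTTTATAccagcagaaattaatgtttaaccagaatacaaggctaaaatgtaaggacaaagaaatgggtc
Ddc, chr11:11890409-11890658: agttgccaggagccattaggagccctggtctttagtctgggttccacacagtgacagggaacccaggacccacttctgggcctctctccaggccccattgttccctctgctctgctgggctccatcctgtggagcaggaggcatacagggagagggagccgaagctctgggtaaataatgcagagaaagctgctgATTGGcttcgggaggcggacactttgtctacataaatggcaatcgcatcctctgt
Sat1, chrX:155216450-155216699: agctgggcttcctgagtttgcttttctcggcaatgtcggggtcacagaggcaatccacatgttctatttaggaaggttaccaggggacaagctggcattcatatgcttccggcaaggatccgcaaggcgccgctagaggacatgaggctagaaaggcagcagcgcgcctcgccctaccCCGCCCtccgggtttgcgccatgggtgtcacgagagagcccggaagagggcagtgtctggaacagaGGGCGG

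The first Ddc window had a GC content of 40.8% and the second 56.0%, and the Sat1 window had 59.6%, beside a median of 52.4% over 32851 windows of the same length. Motifs were searched on both strands, with overlapping matches counted, and 5 were tried. A match to TATAAA, the TATA box, was present in 12.4% of all windows and in 1 of the 10 windows of 8 members, the first of Ddc. CCAAT was found in 33.8% of all windows and 3 of 10, and GGGCGG, the GC box, in 32.7% and 6 of 10. The E-box CACGTG occurred in 6.02% of windows and in 1 of the 10, a window of Sms. TGATGNAA, a form bound by dimers of C/EBP factors with ATF4, occurred in 3.45% of windows and in 0 of 10. A match is a description of the letters and not a bound site.

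Among all other genes, Serpinb5, Mettl7a and Cdkn2c had the pattern most like that of Ddc, by the root mean square difference of log2 values centred on the mean of the 6 cultures. Serpinb5, which encodes the serpin maspin of mammary epithelium, differed by 0.117 and changed by -1.55 (SE 0.35, adjusted p = 0.069). Mettl7a, a gene for a methyltransferase-like protein, differed by 0.132 and changed by -1.48 (SE 0.32, adjusted p = 0.059). Cdkn2c, the CDK4 and CDK6 inhibitor p18, differed by 0.181 and changed by -1.48 (SE 0.34, adjusted p = 0.071). None of these was called, and in each of them, as in Ddc, MAZ1310 replicate 1 was the lowest of the MAZ1310 cultures. The values were 5.85, 6.01 and 6.49 in HF cultures and 6.89, 7.87 and 8.24 in MAZ1310 cultures for Serpinb5. Serpinb5 was thus dim in both treatments, and Mettl7a and Cdkn2c were dim with HF only. These genes were selected for likeness over the same cultures, so their likeness is not a test.

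Hdc was dim in both treatments and did not show the difference seen in Ddc. It read 6.16, 7.14 and 6.42 in HF cultures and 6.23, 6.60 and 6.50 in MAZ1310 cultures. HF replicate 2 was the highest, HF replicate 1 was the lowest, and the groups overlapped. The means of 6.57 ± 0.51 with HF and 6.44 ± 0.19 with MAZ1310 lay at the 56.0th and 49.9th percentiles of the olfactory receptor genes. The change was 0.13 (SE 0.26, interval -0.48 to 0.74), an interval that leaves room for a change in either direction, and without HF replicate 2 the change was -0.15.

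Odc1, the first enzyme of polyamine synthesis, was read near the top of the scale. It gave 15.93, 15.92 and 15.82 in HF cultures and 15.38, 15.86 and 15.66 in MAZ1310 cultures. The lowest HF culture lay below the highest MAZ1310 culture, so the groups overlapped. The mean was 15.89 ± 0.062 with HF and 15.63 ± 0.24 with MAZ1310, a change of 0.26 (SE 0.16, interval -0.11 to 0.62), and Odc1 was not called. Of the 9 HF arrays, 4 held Odc1 at 65535, the highest intensity of the table (log2 of 16.00), as did 0 of the 9 MAZ1310 arrays. A level above this value could not be read. No probe was brighter than Odc1 on these 4 HF arrays. The same held for technical arrays 1, 2 and 3 of MAZ1310 replicate 2 and technical array 3 of MAZ1310 replicate 3. On those MAZ1310 arrays Odc1 read 54895.5 to 65382.0. Odc1 thus stood at the top of single arrays in both treatments, which limits how its change can be read. Without MAZ1310 replicate 1 the change was 0.13, and without technical array 1 of that culture alone it was 0.11. The number of probes brighter than Odc1 on an array ran from 0 to 186. On single arrays the lowest, median and highest values were 15.46, 15.97 and 16.00 with HF and 14.48, 15.81 and 15.997 with MAZ1310.

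The antizymes did not differ between the treatments beyond the spread of the cultures. Oaz1 read 8.53, 9.06 and 8.57 in HF cultures and 8.16, 9.11 and 8.83 in MAZ1310 cultures, a change of 0.02 (SE 0.27, interval -0.61 to 0.65). Its means of 8.72 ± 0.29 with HF and 8.70 ± 0.49 with MAZ1310 lay just inside the dim range, and its widest spread over technical arrays was 1.26, in MAZ1310 replicate 1. Oaz2 read 9.63, 10.05 and 10.17 in HF cultures and 9.59, 9.90 and 10.37 in MAZ1310 cultures. Its mean was 9.95 ± 0.28 with HF and 9.95 ± 0.39 with MAZ1310, and its change of -0.002 (SE 0.24, interval -0.56 to 0.55) was the smallest among the members. For both antizymes the groups overlapped and the sign rested on single cultures. The Oaz1 change was -0.15 without HF replicate 2 and -0.25 without MAZ1310 replicate 1, and that of Oaz2 was 0.16 without HF replicate 1 and 0.20 without MAZ1310 replicate 3.

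Amd1 and Srm, which lead to spermidine, were a little higher on average with HF, by less than the cultures differed among themselves. Amd1 read 13.55, 13.39 and 12.90 in HF cultures and 13.45, 12.61 and 12.86 in MAZ1310 cultures, with means of 13.28 ± 0.34 with HF and 12.98 ± 0.43 with MAZ1310. Its change was 0.31 (SE 0.26, interval -0.31 to 0.92). Its technical arrays spread widely, by 2.15 in HF replicate 3, where they ran between 11.94 and 14.10. Srm read 13.09, 12.76 and 12.60 in HF cultures and 13.13, 12.52 and 12.09 in MAZ1310 cultures, with means of 12.82 ± 0.25 with HF and 12.58 ± 0.52 with MAZ1310. Its change was 0.23 (SE 0.27, interval -0.41 to 0.87). In both genes replicate 1 was the highest culture of each treatment, the groups overlapped, and neither gene was called. The Amd1 change was 0.17 without HF replicate 1, 0.50 without HF replicate 3, 0.55 without MAZ1310 replicate 1 and 0.13 without MAZ1310 replicate 2. The Srm change was 0.10 without HF replicate 1, 0.51 without MAZ1310 replicate 1 and -0.0095 without MAZ1310 replicate 3, where its sign turned.

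Sat1, which starts the breakdown and export of spermidine and spermine, was higher in HF cultures and was the member called higher. It read 14.47, 14.11 and 14.63 in HF cultures and 13.27, 13.69 and 13.19 in MAZ1310 cultures. Every HF culture lay above every MAZ1310 culture, which was so for 11.2% of all genes. The means were 14.40 ± 0.27 with HF and 13.38 ± 0.27 with MAZ1310, a change of 1.02 (SE 0.20, interval 0.55 to 1.48), or 2.02-fold higher. Of all genes, 208 changed upward by at least as much. The lowest, median and highest arrays were 13.98, 14.21 and 15.02 with HF and 12.85, 13.34 and 14.05 with MAZ1310, and here too the groups overlapped at the level of single arrays. Sat1 has 1 probe, and in the fit over all probes, with the same values, it was not called. Its call also ended when any of the 6 cultures was left out, with a change of 0.98 without HF replicate 1, 1.16 without HF replicate 2, 0.91 without HF replicate 3, 0.96 without MAZ1310 replicate 1, 1.17 without MAZ1310 replicate 2 and 0.92 without MAZ1310 replicate 3.

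Of the 8 measured members, then, 2 were called and did not overlap between the treatments, Sat1 above and Ddc below, beside 3.02% of all genes called and 21.0% with non-overlapping cultures. Since the members were chosen on this comparison, these counts are only read side by side. The other 6 members overlapped, with changes of 0.002 to 0.31 in size and standard errors of the 8 genes of 0.16 to 0.28. The median change of the 8 genes was 0.18, against -0.002 over all genes. The changes of the uncalled members moved with single cultures, and those of Hdc, Oaz1, Oaz2 and Srm turned sign when certain cultures were left out.

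**Figure D2:**
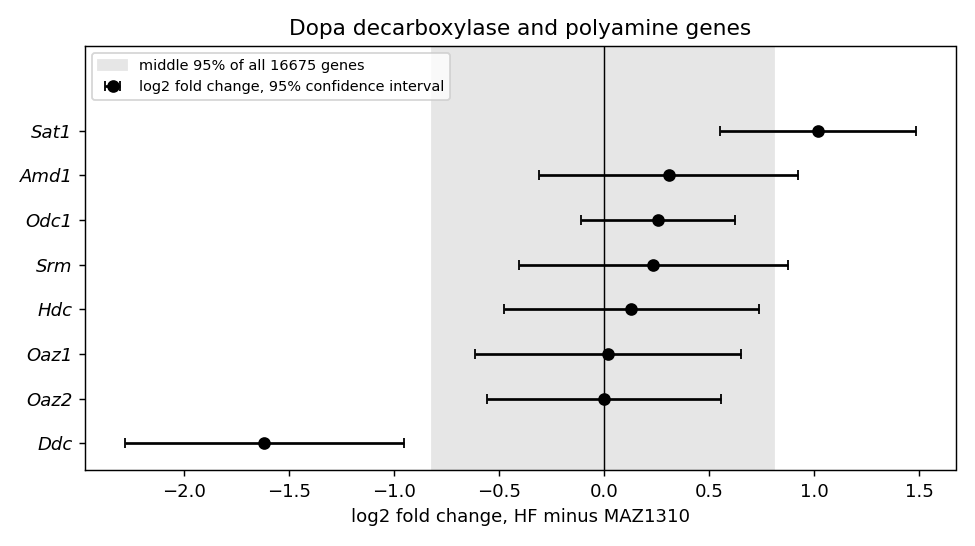
Log2 fold change (HF minus MAZ1310, horizontal axis) of the 8 measured genes with its 95% confidence interval from limma. The grey band holds the middle 95% of all 16675 genes, between -0.82 and 0.81. Ddc at -1.62 and Sat1 at 1.02 lie outside the band, and the other 6 genes lie inside it with intervals that cover 0.

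Genes around the members were taken from 10 lists by function, holding 60 genes of which 51 were measured. These lists were also chosen with earlier results of these data known. Their counts and adjusted p are therefore a description and not an independent test. Across the lists 3 genes rose (5.88% of the 51, beside 3.02% of all genes), 0 fell and 48 did not pass. In limma, 6 of the 51 (11.8%) were below 0 with an unadjusted p under 0.05, beside 8.53% of all genes, and 0 fell with the trended, robust variance either. Cultures did not overlap for 15 of the 51 genes, beside 21.0% of all genes. The median change of the 51 genes was 0.07, and 26 of them were dim in both treatments.

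Ornithine and arginine supply was measured at 7 of 7 genes. Aldh18a1, the enzyme that makes the precursor of proline and ornithine from glutamate, rose with HF. It read 10.22, 10.93 and 10.63 in HF cultures and 9.16, 8.73 and 9.18 in MAZ1310 cultures, with no overlap, a change of 1.57 (SE 0.22, adjusted p = 0.022) or 2.98-fold. The call ended without HF replicate 2 (1.40), HF replicate 3 (1.56), MAZ1310 replicate 2 (1.42) or MAZ1310 replicate 3 (1.65). The other 6 genes did not pass, among them Oat, ornithine aminotransferase, with the largest change of these at -0.34 (SE 0.25, adjusted p = 0.638). The arginases Arg1 and Arg2, which release ornithine from arginine, changed by 0.05 and -0.14.

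Polyamine breakdown beside Sat1 was measured at 2 of 4 genes, and neither passed. Smox, the oxidase that turns spermine back into spermidine, read 11.61, 11.87 and 11.82 in HF cultures and 10.97, 11.42 and 11.16 in MAZ1310 cultures. All HF cultures lay above all MAZ1310 cultures, with a change of 0.58 (SE 0.16, adjusted p = 0.113). The partners of the antizymes and the third antizyme were measured at 3 of 3 genes, and 0 passed (0 at an unadjusted p under 0.05, a level that 16.5% of all genes reached in either direction). The largest change there was that of Azin2, an antizyme inhibitor listed on the array under its older symbol Adc, at -0.50 (SE 0.33, adjusted p = 0.574). In hypusine formation, the modification of Eif5a that uses spermidine, 3 of 4 genes were measured and 0 passed (1 at an unadjusted p under 0.05). Its last enzyme, Dohh, had the largest change at -0.54 (SE 0.19, adjusted p = 0.200), with all HF cultures below all MAZ1310 cultures.

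Salvage of methylthioadenosine, the by-product of Srm and Sms, together with the supply of S-adenosylmethionine was measured at 8 of 9 genes, and 0 passed (3 at an unadjusted p under 0.05). Its largest change was that of Got1, an aminotransferase, at 0.81 (SE 0.22, adjusted p = 0.113). The Got1 means were 12.88 ± 0.40 with HF and 12.06 ± 0.20 with MAZ1310. The genes at that unadjusted level were Got1, Adi1 (-0.62, SE 0.17) and Mtap (-0.53, SE 0.16). All HF cultures lay above all MAZ1310 cultures for Got1 and below them for Adi1 and Mtap. The median change of this list was -0.06. Other decarboxylases that use pyridoxal phosphate were measured at 6 of 7 genes, with 0 passing (0 at an unadjusted p under 0.05) and changes between -0.50 and 0.23. Pyridoxal phosphate supply was measured at 2 of 3 genes, Pdxk and Pdxp, with changes of -0.09 and 0.004 that did not pass. The Pdxk change was 0.32 without HF replicate 3 and 0.33 without MAZ1310 replicate 1.

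Amine synthesis beside Ddc was measured at 6 of 7 genes and 0 passed (0 at an unadjusted p under 0.05). Th, which makes the L-dopa that Ddc uses, changed by -0.14, and Tph1 and Tph2, which make its other substrate 5-hydroxytryptophan, by 0.07 and 0.26. None of the 6 genes had cultures that did not overlap. Tetrahydrobiopterin, the cofactor of Th and the Tph enzymes, has 6 genes in the list, all measured and 0 passing (3 at an unadjusted p under 0.05, beside 16.5% of all genes), with a median change of -0.45. The largest was that of Spr, sepiapterin reductase, at 9.05, 8.66 and 9.03 in HF cultures and 9.79, 9.43 and 9.99 in MAZ1310 cultures, a change of -0.82 (SE 0.19, adjusted p = 0.072). Cultures did not overlap for 5 of the 6, beside 21.0% of all genes (9.85% with HF below and 11.2% with HF above). HF was below for Spr, Qdpr (-0.55), Pcbd1 (-0.58) and Gchfr (-0.36), which recycle the cofactor, complete it or regulate its synthesis, and above for Gch1 (0.36), the first enzyme. The probes of Gch1 differed, with changes of 0.66 and 0.06, and the cultures overlapped at each of them, so its separation is seen only in their median.

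Amine breakdown and transport was measured at 9 of 11 genes, of which 2 rose. Slc6a3, the dopamine transporter of the plasma membrane, read 11.37, 11.08 and 11.03 in HF cultures and 10.24, 9.79 and 10.03 in MAZ1310 cultures, a change of 1.14 (SE 0.17, adjusted p = 0.023). The cultures did not overlap, and neither mean was dim. Slc18a2, the vesicular monoamine transporter, read 7.75, 7.64 and 8.13 in HF cultures and 6.82, 6.75 and 7.11 in MAZ1310 cultures, a change of 0.95 (SE 0.18, adjusted p = 0.043), and it was dim in both treatments. Its probes changed by 1.04 and 0.86 and neither passed in the fit over probes. Its call ended with the brightest probe (0.86, adjusted p = 0.072) and with the median over technical arrays (1.04, adjusted p = 0.056). The Slc6a3 call ended without HF replicate 1 (1.03), HF replicate 2 (1.18), HF replicate 3 (1.21), MAZ1310 replicate 2 (1.03) or MAZ1310 replicate 3 (1.15), and that of Slc18a2 without any of the 6 cultures (0.81 to 1.06). Maoa, which oxidises the products of Ddc, changed by 0.36 (SE 0.17, adjusted p = 0.372) and was the largest of the 7 that did not pass.

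**Figure D3:**
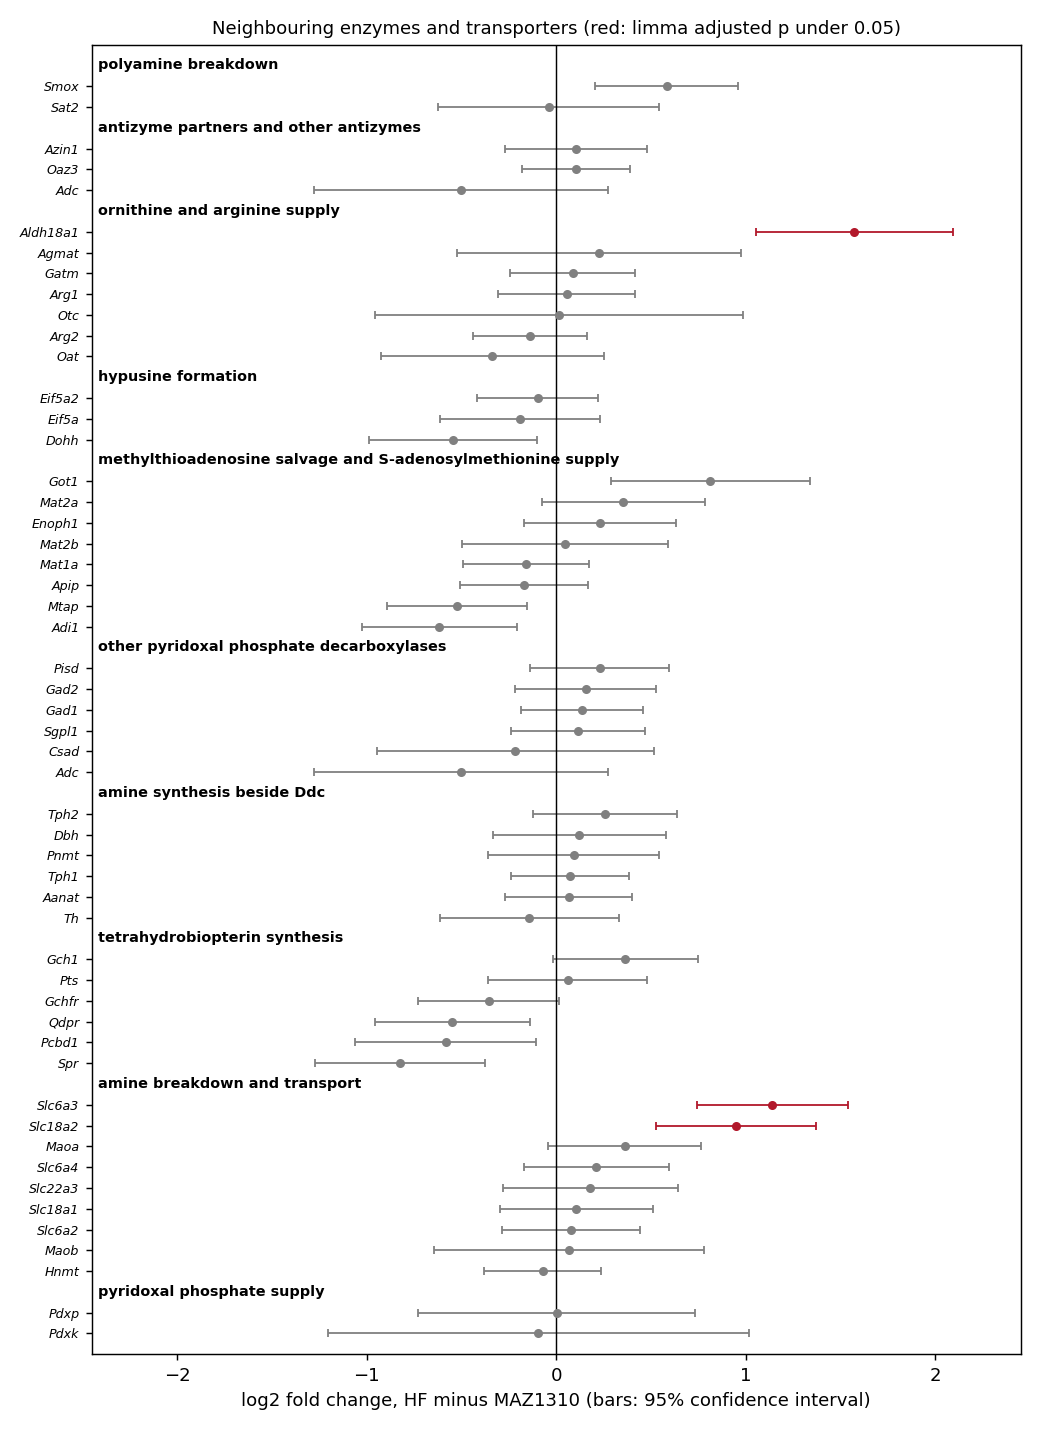
Log2 fold changes (HF minus MAZ1310, horizontal axis) of the measured genes of 10 functional lists, with 95% confidence intervals; Adc (Azin2) stands in 2 lists. Genes past the adjusted threshold are red (Aldh18a1 at 1.57, Slc6a3 at 1.14 and Slc18a2 at 0.95). Of the 6 tetrahydrobiopterin genes, 0 passed. Of these 6, 4 lie left of 0 with non-overlapping cultures, which was so for 9.85% of all genes.

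Markers of epithelial cells and of other cell types were checked. Of 10 epithelial markers, 5 were above the dim range (Cdh1, Krt8, Krt18, Krt19 and Cldn4), while the other 5, Epcam, Cldn3, Cldn7, Ocln and Esrp1, were dim. Summed intensities of the 10 were 161379 to 162543 over HF cultures and 141483 to 155550 over MAZ1310 cultures, without overlap. HF cultures lay above without overlap for 11.2% of all genes, and 0 of the 10 markers were called. Their single changes ran from -0.15 to 0.68. All 8 mast cell markers, a list that holds Hdc, were dim, with summed intensities of 635 to 721 over HF cultures and 608 to 650 over MAZ1310 cultures. Of 7 neuroendocrine markers, a list that holds Th and Tph1, 6 were dim and Syp was not, with sums of 941 to 1531 over HF cultures and 1158 to 1615 over MAZ1310 cultures. The 7 fibroblast and 4 adipocyte markers were dim, as were 5 of 6 measured blood and endothelial markers, Cd3e being the exception. In limma 0 of the 42 measured markers were called, and 3 (7.14%) had an unadjusted p under 0.05, beside 16.5% of all genes.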

How the data were processed

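NMuMG cells were treated with HF or MAZ1310 in 3 cultures each, and each culture was run on 3 arrays. Per the study's methods, the authors kept only probes measured above 0 on all arrays, then applied quantile normalization. The deposited table holds the normalized linear intensity of 21973 probes on 18 arrays, from 36.4 to 65535, with array medians of 249.7 to 251.2. No counts or detection calls were used, and the number of cultures limits the precision.

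Probes were named from the platform annotation, in which 21020 had 1 symbol, 0 had several and 953 had none and were left out of the gene fit. Intensities were log2 transformed, the median over the probes of a gene was taken on each array, and technical arrays were averaged per culture. HF was compared with MAZ1310 by lmFit and eBayes in limma 3.58.1 (R 4.3.3), two-sided, with Benjamini-Hochberg adjustment over 16675 genes, or over 21973 probes in the fit on single probes. The same fit was also run on simulated data with known changes. The simulation took its means and SDs from the measured genes and held no effect shared by same-numbered cultures. The submitters label the cultures as biological replicates.

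The members and gene lists were chosen with earlier results of these data known. Genes named are the 9 members, the genes of each functional list past the threshold, the gene of each list with the largest change that did not, and the 3 genes most like Ddc. Other genes (such as Arg1, Th, Qdpr and Gch1) were named after their values were seen. Promoter windows are from RefSeq (GRCm38.p6) and were matched by symbol for 8 of the 9 members. The alternatives tried were median centring, repeated quantile normalization, a filter on dim genes, the mean over probes or the brightest probe, the median over technical arrays, all 18 arrays with culture as a random block, the replicate number as a block, trended and robust variance, Storey q-values, and leaving out single cultures or arrays.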

Additional observations from a re-analysis of the deposited data

Results flagged for a closer look

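Odc1 had an array far from the others in each treatment, by Dixon's criterion (the gap to the nearest array, divided by the whole range, above the 95% critical value for 9 arrays). With HF, technical array 2 of replicate 3 read 15.456, with the next array at 15.799 (gap over range 0.631). With MAZ1310, technical array 1 of replicate 1 read 14.479, with the next at 15.456 (0.644). Without the HF array the Odc1 change was 0.32, and without the MAZ1310 array it was 0.11, against 0.26 with all arrays. The 9 arrays of a treatment are technical repeats of 3 cultures. Across the 9 probes and both treatments 18 sets of arrays were examined and 2 met the criterion. For sets of independent values the criterion is met by about 1 in 20. That rate does not carry over here, since the arrays share cultures and the scale's ceiling holds down the highest Odc1 values. Of the arrays of each treatment, the flagged arrays also had the lowest median correlation with all other arrays of both treatments, 0.949 and 0.945.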

How the results depend on the processing

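With the replicate number as a block, 891 genes were called higher and 901 lower, against 242 and 262 without it. In the lists, 5 genes were higher and 4 lower under the block, against 3 and 0. Ddc (SE 0.18) and Sat1 (SE 0.20) were called with and without the block. The deviations of same-numbered cultures correlated at 0.67, 0.08 and 0.69 for replicates 1, 2 and 3. HF replicate 3 correlated at -0.685 with MAZ1310 replicate 1, and HF replicate 1 at -0.623 with MAZ1310 replicate 3. MAZ1310 replicate 2 correlated best (0.27) with HF replicate 3. The labels do not say whether same-numbered cultures were handled together, and this was not tested. All 18 arrays with culture as a random block gave 615 higher and 513 lower. Leaving out dim genes gave 380 higher genes, 1 called member (Ddc drops out as dim) and 1 lower gene in the lists (Spr). The median over technical arrays gave 133 higher genes and 1 called member, since Sat1 at 0.98 was no longer called. The brightest probe left 1 called member, since Sat1, with its change still 1.02, was no longer called among the genes then tested. Leaving out a culture, which leaves 5, gave 33 to 135 higher genes and 15 to 204 lower genes, with the fewest without HF replicate 2 and the most without MAZ1310 replicate 1. It left 0 to 1 called members, 0 to 2 higher genes and 0 to 0 lower genes in the lists, a Ddc change of -1.93 to -1.41 and a Sat1 change of 0.91 to 1.17. In 2 alternatives chosen after seeing the data, the array with the lowest correlation in each treatment was left out. Without technical array 2 of HF replicate 3, Ddc was at -1.65 and Sat1 at 0.95, and without technical array 1 of MAZ1310 replicate 1, Ddc was at -1.59, Sat1 at 1.11 and 1 gene of the lists was lower. Both members stayed called in each. The brightest probe and the median over technical arrays each left 2 higher genes in the lists, without Slc18a2. The direction turned for 5 genes that were not called, and for the probe of each member among them, when a culture was left out. Their changes then ran from -0.15 (without HF replicate 2) to 0.34 (without HF replicate 1) for Hdc, -0.25 (without MAZ1310 replicate 1) to 0.22 (without MAZ1310 replicate 2) for Oaz1, which was also below 0 without HF replicate 2 (-0.15) and without technical array 1 of MAZ1310 replicate 1 (-0.076), -0.18 (without MAZ1310 replicate 1) to 0.20 (without MAZ1310 replicate 3) for Oaz2, -0.0095 (without MAZ1310 replicate 3) to 0.51 (without MAZ1310 replicate 1) for Srm, and -0.42 (without HF replicate 1) to 0.33 (without MAZ1310 replicate 1) for Pdxk. Of 409 values of single genes or probes under these alternatives, 358 kept their direction and side of the threshold, 16 turned direction, 12 passed the threshold and 23 no longer did. Where no cause is given, the cause was not tested. Precision is limited by 3 cultures a treatment, by the dim range for Ddc, Hdc and Oaz1, and by the scale's ceiling for Odc1.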
